A study of Rattus norvegicus with 6 samples.

Results

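The endoplasmic reticulum (ER) genes described here encode the machinery that takes secreted proteins into the ER, folds them, and ships them to the Golgi. The 60 genes were listed by function: chaperones, lectins and calcium-binding proteins, disulfide and prolyl isomerases, the translocon, signal peptidase, oligosaccharyltransferase, the COPII coat, cargo and KDEL receptors, and regulators of ER stress. Probes were taken where the platform annotation gives a listed symbol, which held for 50 of the 60 genes and 52 of 22517 probes. Of these 50 genes, 46 had a probe that passed the filter on low signal (above the array median on at least 3 of 6 arrays), and 0 of the 46 passed it through the arrays of 1 day alone. Within the 60, 11 genes were treated as collagen-linked, meaning that their proteins fold, modify or export collagen or, for Creb3l1, drive its transcription, and 49 as general. The collagen-linked genes with a passing probe were Serpinh1, P4hb, Ppib, Fkbp10, Rcn3, Sec23a and Creb3l1, 7 in all, and 39 general genes passed.

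The samples were whole-implant RNA from Sprague-Dawley rats of 10 weeks. Cellulose implants with a hydroxyapatite coat had been placed under the skin and were taken out after either 72 hours, called day 3 here (rats 4, 6 and 7), or 24 hours, called day 1 (rats 1, 2 and 3). Each implant came from another animal, giving n = 3 rats for each time. Every implant carried the same coat, and no uncoated implant or intact skin entered the comparison. RNA was hybridised to Illumina bead arrays of 1 colour, and signals below are log2 of the background-corrected normalized intensity, where the array median was 6.47 and the brightest probe reached 15.47. A level refers to this signal, a change is day 3 minus day 1 on the log2 scale, and values per array follow the order of rats just given. A probe's level is set against the same probe only, since probes differ in brightness.

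A protein bound for secretion enters the ER through the Sec61 channel, loses its signal peptide, gains sugars and folds with the help of chaperones such as BiP (Hspa5). Procollagen needs more: hydroxylases and prolyl isomerases act on its chains, the chaperone Hsp47 (Serpinh1) binds the finished triple helix, and COPII carriers must be enlarged to hold it. Fibroblasts of healing wounds are known for heavy collagen secretion. When unfolded proteins accumulate, sensors in the ER membrane activate Xbp1 and Atf4, and Atf6, itself such a sensor, is released from the membrane. Together these factors raise chaperones and, through Atf4, the factor Ddit3 (CHOP).

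The classical stress response is read from short promoter elements, which are shown because the genes that hold them are discussed below. The elements, searched on both strands, were ERSE (CCAAT, any 9 bases, then CCACG), ERSE-II (ATTGG, any 1 base, then CCACG) and UPRE (TGACGTGG). ERSE and ERSE-II share the letters CCACG, and a UPRE can overlap an ERSE-II, as it does in Hyou1. The windows ran from 250 bases before to 50 bases after each gene's start (RefSeq, GRCr8), and 50 of the 60 genes matched an entry. ERSE letters were found in 6 of these 50 windows, against 0.0657% of 33469 windows of all genes. ERSE-II letters were found in 3 of 50, against 0.0508%, and UPRE letters in 3 of 50, against 0.595%. Below are sites of some of the genes whose levels are described, with the element in capitals, 5′ to 3′ on the gene's strand, where an element of the other strand (Calr, Kdelr3) reads as its reverse complement. Hspa5 is at chr3:38452963-38453001 (+), Xbp1 at chr14:84604548-84604586 (+), Calr at chr19:40213125-40213163 (+), Dnajc3 at chr15:102432524-102432562 (+), Herpud1 at chr19:10614811-10614841 (-), Kdelr3 at chr7:112959521-112959548 (+) and Sec23a at chr6:82440978-82441005 (-).
Hspa5 ERSE: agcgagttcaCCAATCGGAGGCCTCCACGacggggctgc
Xbp1 ERSE: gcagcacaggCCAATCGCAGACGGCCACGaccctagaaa
Calr ERSE: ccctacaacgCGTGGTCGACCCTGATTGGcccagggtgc
Dnajc3 ERSE: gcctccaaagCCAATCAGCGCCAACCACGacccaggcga
Herpud1 ERSE-II: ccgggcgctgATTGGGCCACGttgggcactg
Kdelr3 UPRE: agccgccccgCCACGTCAccgcgcggcc
Sec23a UPRE: tcctcccattTGACGTGGcagaggcggc

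The longer upstream stretches of 3 genes show the elements in context: a chaperone with an ERSE, a KDEL receptor with a UPRE and an isomerase with neither. Each is the 150 bases before the start, from chr3:38452866-38453015 (+) for Hspa5, chr7:112959482-112959631 (+) for Kdelr3 and chr4:87436289-87436438 (+) for Fkbp9, with elements in capitals. Fkbp9 held none of the 3 elements anywhere in its window.
Hspa5 upstream: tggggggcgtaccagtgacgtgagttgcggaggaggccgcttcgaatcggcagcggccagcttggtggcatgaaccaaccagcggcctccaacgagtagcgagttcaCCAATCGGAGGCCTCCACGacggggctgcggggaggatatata
Kdelr3 upstream: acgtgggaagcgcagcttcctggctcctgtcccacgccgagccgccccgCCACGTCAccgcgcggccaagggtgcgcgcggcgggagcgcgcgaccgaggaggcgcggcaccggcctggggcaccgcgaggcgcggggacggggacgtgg
Fkbp9 upstream: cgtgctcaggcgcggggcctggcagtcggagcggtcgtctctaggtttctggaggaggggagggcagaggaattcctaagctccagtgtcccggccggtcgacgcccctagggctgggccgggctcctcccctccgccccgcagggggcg

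The comparison of day 3 with day 1 asks how the secretory machinery differed between these early times, and whether its collagen-linked part differed from the rest. Of the 46 tested genes, 15 rose and 4 fell at day 3 (limma with Benjamini-Hochberg adjustment over 11591 probes, threshold 0.05). Over all tested probes 31.9% passed, 16.7% higher and 15.2% lower at day 3. A rise was thus called in 32.6% and a fall in 8.70% of these genes. At 2-fold or more, 10 rose, against 7.18% of all tested probes, and 2 fell, against 6.31%. The days did not overlap for 25 of the 46 genes, a total near the 49.4% of all tested probes. By direction, 18 of the 46 were higher and 7 lower at day 3, against 23.8% and 25.6% of all tested probes. The share higher was thus above the background and the share lower below it. The rise was uneven. The FK506-binding prolyl isomerases Fkbp9, Fkbp10 and Fkbp7 and the calcium-binding protein Rcn3 each rose by more than 8-fold, which 0.457% of all tested probes did. The KDEL receptors and parts of the COPII coat rose 1.68-fold to 4.21-fold, and no disulfide isomerase and none of the 6 chaperones and cochaperones tested rose, also at an unadjusted limma p under 0.05. The genes that fell were Dnajb9, Ddit3, Sdf2l1 and Xbp1. Of the 15 rises, 12 stayed past the test in all 15 other fits of the same comparison. The exceptions were Calu, Ssr2 and Rpn1. These fits share arrays and are not independent checks. The fit that averaged a gene's kept probes could not alter these genes' values, as no listed gene kept more than 1 probe. Fewer falls passed the test with a day 3 rat left out: 2 genes without rat 4, 1 without rat 6 and 0 without rat 7. Falls over all tested probes dropped as well in these fits, from 15.2% to 9.84%, 7.6% and 8.02%. At an unadjusted p under 0.05, limma gave 5, 5 and 6 falls among the 46 genes.

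**Figure D1:**
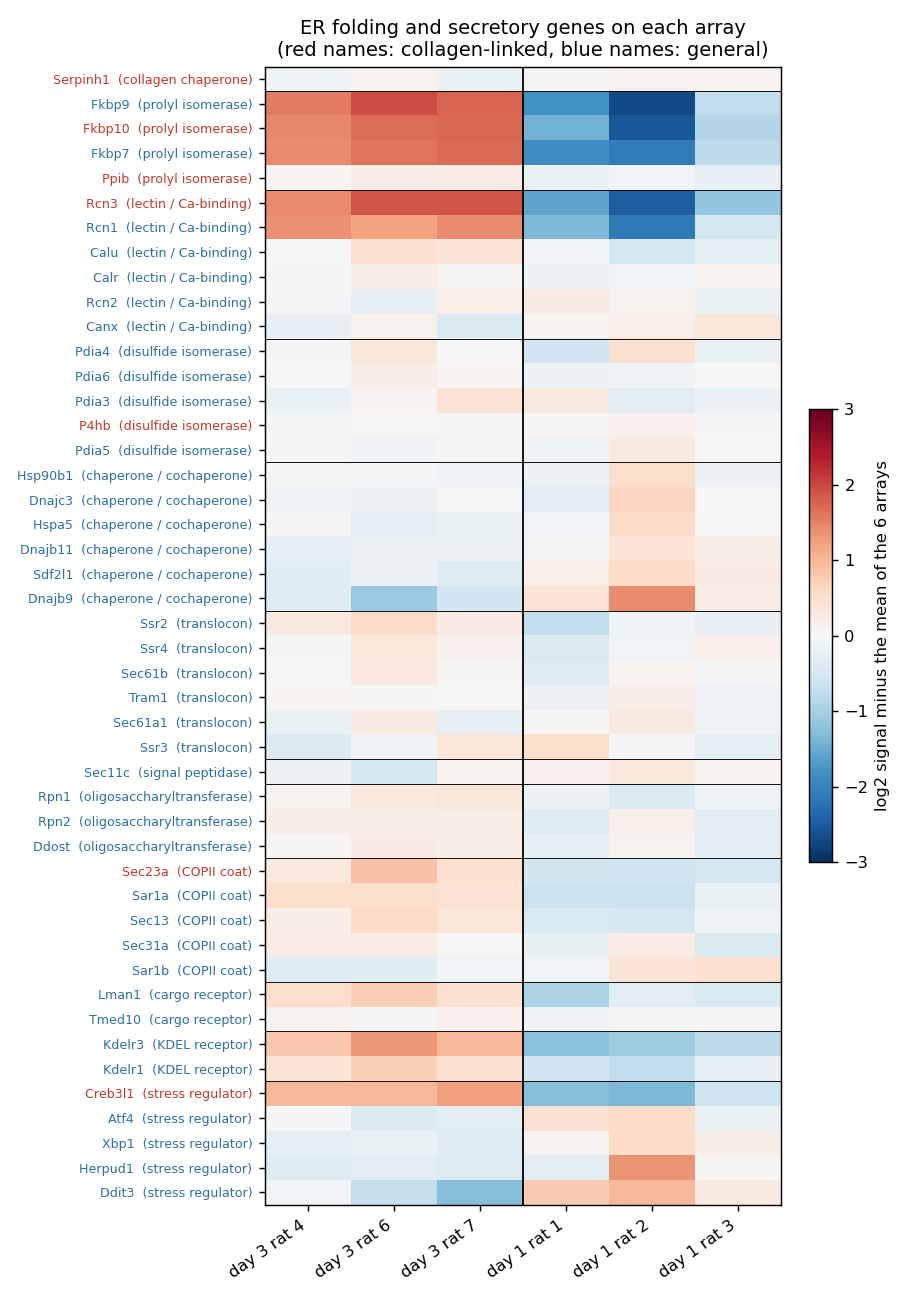
Log2 signal of the 46 tested genes on each array, minus the gene's mean over the 6 arrays, with day 3 rats left of day 1 rats and genes grouped by role. The isomerases Fkbp7, Fkbp9 and Fkbp10 and the calcium-binding Rcn1 and Rcn3 are high on all 3 day 3 arrays. Among the chaperones, Hspa5, Hsp90b1 and Dnajc3 differ little apart from rat 2 of day 1. Dnajb9, Dnajb11 and Sdf2l1 are lower on all 3 day 3 arrays than on any day 1 array.

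Markers of several cell types moved with the days. All 10 fibroblast markers past the filter rose, and their summed intensity was 87828 to 100328 at day 3, against 8947 to 34248 at day 1. Of 10 neutrophil markers past the filter, 8 fell and 1 rose (summed intensity 24452 to 33466 at day 3, against 44636 to 46991 at day 1), and S100a9, Ltf and Ngp did not pass it. Lcn2, the 1 that rose, was the brightest of them at day 3 (13.83, 14.39 and 14.70) and weighed most in the day 3 sums. Of 8 macrophage markers 5 rose and 1 fell (22330 to 35753 at day 3, against 18093 to 25700 at day 1; Marco did not pass), and of 8 endothelial markers 6 rose (12213 to 14602, against 4079 to 7369; Cdh5 and Flt1 did not pass). The macrophage marker that fell, Cd14, was the brightest of its list at day 1 (13.59, 14.04 and 13.71) and weighed most in those day 1 sums. Of the plasma cell markers, which mark cells with a large ER, only Sdc1 and Xbp1 passed the filter and both fell, and Xbp1 is itself among the genes described; Mzb1, Prdm1, Irf4 and Tnfrsf17 did not pass. The 8 skeletal muscle markers past the filter had changes of -0.97 to 0.42, and their summed intensity was 29510 in rat 6 (day 3) and 38010 in rat 3 (day 1), and 1322 to 2932 on the other arrays. Myh2 and Myh4 did not pass the filter. The part of these markers' cells in the results below was not tested, and in bulk RNA a change in the number of cells and a change in RNA per cell cannot be told apart. When rats 6 and 3 were left out together, 12 of the 46 genes rose and 4 fell, against 18.0% and 16.7% of all tested probes.

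Among the prolyl isomerases, which turn proline bonds and so help collagen chains fold, 3 of 4 tested genes rose and none fell. Fkbp10 encodes FKBP65, a collagen chaperone whose loss causes brittle bone disease in humans. Its level was 13.80, 14.04 and 14.09 at day 3, against 10.96, 9.82 and 11.50 at day 1. The days were more than 2 log2 units apart, and rat 2 was the lowest. The change was 3.22 ± 0.39 (SE), or 9.31-fold (limma adjusted p = 0.00212). Fkbp9 and Fkbp7 encode ER isomerases of the same family. Fkbp9 had 12.90, 13.32 and 13.11 at day 3, against 9.54, 8.68 and 10.62 at day 1 (11.3-fold, adjusted p = 0.00238). Fkbp7 had 11.02, 11.21 and 11.31 at day 3, against 7.74, 7.50 and 8.82 at day 1 (8.92-fold, adjusted p = 0.00134). All 3 showed the same order within day 1, with rat 2 lowest and rat 3 highest, and the days did not overlap. Among all 11591 tested probes, the changes of Fkbp9, Fkbp10 and Fkbp7 ranked 26, 41 and 46 from the largest rise.

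Ppib, or cyclophilin B, is the isomerase that works in a complex with the collagen prolyl 3-hydroxylase P3h1. It was bright on every array, with 14.16, 14.31 and 14.30 at day 3 and 13.89, 14.01 and 13.83 at day 1. Every day 3 value lay above every day 1 value, but the change of 0.35 had adjusted p = 0.0518 (95% confidence interval 0.08 to 0.61). It passed in 4 of the 15 other fits of the comparison. Limma adjusted p was 0.0474 without rat 2, 0.0388 with no filter, 0.0422 with no background correction and 0.00831 with array weights. The fit with array weights called 26.1% of all tested probes higher. It gave rat 1 a weight of 4.57, against 0.29 for rat 2 and 0.34 for rat 3, so its day 1 mean rested mostly on rat 1. In the remaining fits Ppib did not pass, with limma adjusted p up to 0.257 (cyclic loess). The lower bounds of the 3 Fkbp genes were 2.29 and more, above the interval of Ppib.

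Serpinh1 encodes Hsp47, the ER chaperone dedicated to collagen. Its probe had 7.91, 8.13 and 7.83 at day 3, against 8.07, 8.13 and 8.14 at day 1, and the days overlapped. The change was -0.15 (interval -0.44 to 0.13, adjusted p = 0.361), and no other fit called it. A single named probe stands for this gene, at a level below 9 on all 6 arrays. P4hb encodes protein disulfide isomerase, which also serves as a subunit of the collagen prolyl 4-hydroxylases. It had 14.28, 14.35 and 14.29 at day 3, against 14.37, 14.46 and 14.29 at day 1, with a change of -0.07 (interval -0.32 to 0.18). Its days overlapped as well. Of the 7 fibrillar collagen genes tested, 6 rose (median change 3.94), such as Col1a1 by 5.15 and Col5a1 by 4.52.

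The other disulfide isomerases form and shuffle disulfide bonds in secreted proteins generally. Pdia3, Pdia4, Pdia5 and Pdia6 had changes between -0.08 and 0.20, and with P4hb none of the 5 genes of this group passed the limma test, adjusted or at an unadjusted p under 0.05. Pdia6 had 13.58, 13.75 and 13.62 at day 3, against 13.37, 13.46 and 13.56 at day 1, without overlap but with adjusted p = 0.245. The intervals of the group reached at most 0.84, for Pdia4, and -0.44 at the low end, also for Pdia4.

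**Figure D2:**
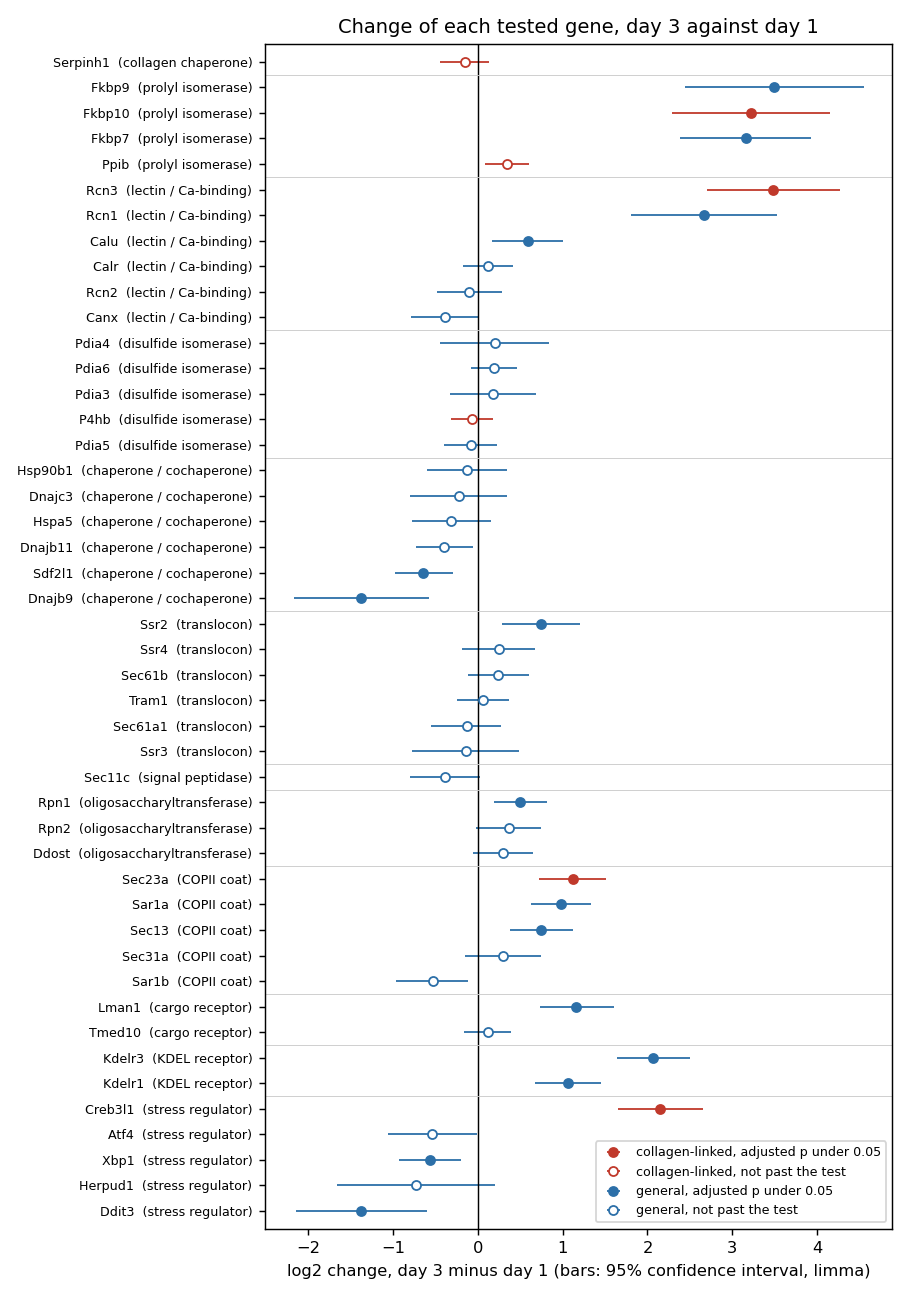
Log2 change of each tested gene, day 3 minus day 1, with its 95% confidence interval from limma, by role; filled points passed the test and red points are collagen-linked. Fkbp9, Fkbp10, Fkbp7 and Rcn3 lie above 3, and the disulfide isomerases lie around 0.

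The reticulocalbins Rcn1, Rcn2 and Rcn3 and calumenin (Calu) are calcium-binding proteins of the secretory pathway, and calreticulin (Calr) and calnexin (Canx) are lectin chaperones that hold glycoproteins until they fold. Of these 6 tested genes, 3 rose and none fell. Rcn3, which mouse work ties to collagen production, had 13.11, 13.58 and 13.58 at day 3, against 10.10, 9.20 and 10.52 at day 1. It rose 11.2-fold (change 3.48 ± 0.33 SE, adjusted p = 0.00106), with a rank of 27 from the largest rise. Rcn1 had 13.81, 13.66 and 13.87 at day 3, against 11.11, 10.32 and 11.92 at day 1, and rose 6.34-fold (adjusted p = 0.00306). Both showed the within-day order of the Fkbp genes, with rat 2 lowest. Calu rose by 0.59 (adjusted p = 0.0433), and this call was lost in 9 of 15 other fits: leaving out rats 1, 2, 3, 6 or 7 in turn gave adjusted p = 0.0595, 0.105, 0.0506, 0.14 and 0.136. Rcn2 had an interval of -0.48 to 0.29 around a change of -0.10, which lies below the intervals of Rcn1 (1.80 to 3.53) and Rcn3 (2.70 to 4.27). Calr had 14.63, 14.86 and 14.69 at day 3, against 14.49, 14.58 and 14.74 at day 1, and Canx had a change of -0.39 (adjusted p = 0.129).

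The chaperones proper are BiP (Hspa5), Grp94 (Hsp90b1), and the BiP cochaperones Dnajb9, Dnajb11, Dnajc3 and Sdf2l1. None of these 6 tested genes rose and 2 fell. Hspa5 had 14.52, 14.18 and 14.27 at day 3, against 14.40, 15.03 and 14.47 at day 1, with a change of -0.31 (interval -0.77 to 0.16, adjusted p = 0.269). Hsp90b1 had 13.27, 13.27 and 13.22 at day 3, against 13.15, 13.84 and 13.15 at day 1. Rat 2 was the highest of the 6 arrays for all 6 of these genes, and the days overlapped for Hspa5 and Hsp90b1. Dnajb9 encodes ERdj4, a cochaperone induced by spliced Xbp1. It had 9.44, 8.70 and 9.23 at day 3, against 10.22, 11.23 and 10.04 at day 1, and fell 2.58-fold (adjusted p = 0.0223, or 0.0795 and 0.0645 when rats 6 and 7 were left out in turn). Sdf2l1, a partner of BiP cochaperones, had 7.14, 7.33 and 7.11 at day 3, against 7.65, 8.07 and 7.75 at day 1. It fell by 0.64 (adjusted p = 0.0172; 0.0645 and 0.07 without rats 4 and 7). Dnajb11 had adjusted p = 0.0728 for a change of -0.40, and 0.0454 without rat 1. Without rat 2, Hsp90b1 had a change of 0.11 and Dnajc3 of 0.05, against -0.13 and -0.22 with it.

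Of 5 stress regulators tested, 1 rose (Creb3l1), 2 fell (Ddit3 and Xbp1) and 2 did not pass the test (Atf4 and Herpud1). Creb3l1, or OASIS, is a transcription factor held in the ER membrane that mouse osteoblasts need for full expression of Col1a1. It had 11.14, 11.15 and 11.37 at day 3, against 8.87, 8.80 and 9.55 at day 1, and rose 4.43-fold (change 2.15 ± 0.21 SE, adjusted p = 0.00117). The groups were well apart, and no fit in 15 lost the call. Ddit3, the stress-induced factor CHOP, had 13.30, 12.69 and 12.10 at day 3, against 14.16, 14.39 and 13.66 at day 1. It fell by 1.37 (adjusted p = 0.019), and leaving out rats 1, 2, 6 or 7 in turn gave 0.0682, 0.0546, 0.0647 and 0.0523. Xbp1, the factor whose mRNA is spliced by the sensor Ire1, had 12.68, 12.78 and 12.60 at day 3, against 13.05, 13.55 and 13.15 at day 1. It fell by 0.56 (adjusted p = 0.032), and the call was lost without rat 4 (0.0943), rat 6 (0.0713) or rat 7 (0.111); spliced and unspliced forms were not separated. With rats 6 and 3 both left out the change was -0.66 (adjusted p = 0.0506).

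Atf4, which drives the amino acid and redox part of the response, had 11.80, 11.41 and 11.55 at day 3, against 12.32, 12.40 and 11.65 at day 1. The days overlapped at rat 3, and the change of -0.54 had adjusted p = 0.11. Without rat 3 it was -0.77 with adjusted p = 0.00703. Herpud1, a stress-induced protein of ER degradation, had 10.80, 10.83 and 10.77 at day 3, against 10.86, 12.52 and 11.21 at day 1. The days did not overlap, but rat 2 stood far above rats 1 and 3, and the SD was 0.03 at day 3 and 0.88 at day 1 (n = 3 each). The change was -0.73 with adjusted p = 0.199. For all 4 regulators tested other than Creb3l1, rat 2 was the highest array.

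**Figure D3:**
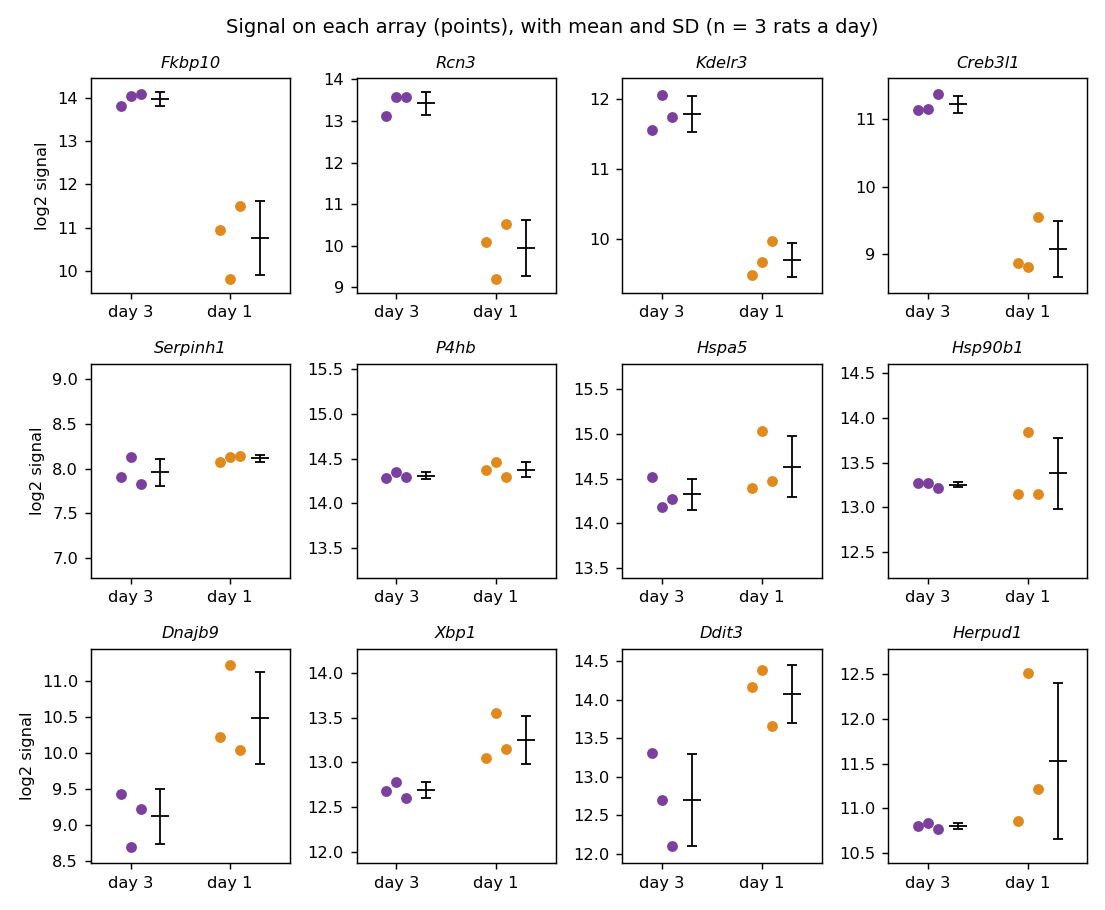
Log2 signal of 12 genes on each array (points; day 3 left, day 1 right), with mean and SD over 3 rats beside them. Fkbp10, Rcn3, Kdelr3 and Creb3l1 are higher on every day 3 array, Serpinh1, P4hb, Hspa5 and Hsp90b1 overlap, and in the lowest row rat 2 (the middle day 1 point) is the highest.

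The translocon showed little movement. Of 6 tested genes, 1 rose: Ssr2, a subunit of the translocon-associated protein complex, had 13.40, 13.73 and 13.37 at day 3, against 12.38, 13.00 and 12.87 at day 1. It rose 1.68-fold (adjusted p = 0.0256), and leaving out rats 1, 4, 6 or 7 in turn gave 0.0609, 0.0604, 0.0899 and 0.0611, and rats 6 and 3 together 0.0646. The channel genes Sec61a1 and Sec61b had changes of -0.13 and 0.24, and Ssr3, Ssr4 and Tram1 had changes between -0.14 and 0.25. For Sec11c, a signal peptidase subunit, the change was -0.39 (adjusted p = 0.138). In the oligosaccharyltransferase, which adds N-linked sugars, Rpn1 rose 1.42-fold (adjusted p = 0.0289), and Rpn2 and Ddost had changes of 0.37 and 0.30. For Rpn1, leaving out rats 1, 2, 6 or 7 in turn gave 0.0657, 0.0617, 0.0951 and 0.108, and rats 6 and 3 together 0.0619. Without rat 2, Rpn2 (0.0159) and Ddost (0.0405) passed as well.

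COPII proteins form the coat of carriers that leave the ER, and 3 of 5 tested genes rose. Sec23a encodes the inner coat subunit whose loss in humans disturbs collagen export and skull growth. It had 8.51, 9.10 and 8.72 at day 3, against 7.66, 7.61 and 7.71 at day 1, and rose 2.17-fold (adjusted p = 0.00398). Sar1a, the GTPase that starts coat assembly, rose 1.98-fold, with 13.08, 13.08 and 13.00 at day 3 against 11.92, 11.92 and 12.36 at day 1 (adjusted p = 0.00423). Sec13, of the outer coat, rose 1.68-fold (adjusted p = 0.012). Its outer coat partner Sec31a had a change of 0.30 (adjusted p = 0.264). Sar1b, the paralog known for chylomicron export, had -0.53 as its change (adjusted p = 0.061, and 0.0302 without rat 1). The intervals of the paralogs did not meet, at 0.63 to 1.34 for Sar1a and -0.96 to -0.11 for Sar1b.

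Of the 2 cargo receptors tested 1 rose, and of the 2 KDEL receptors both. Lman1, the lectin ERGIC-53 that carries clotting factors, had 11.62, 11.83 and 11.54 at day 3, against 10.13, 10.75 and 10.63 at day 1 (2.24-fold, adjusted p = 0.005). Tmed10, a p24 cargo receptor, had a change of 0.12 (adjusted p = 0.471). KDEL receptors return escaped ER proteins from the Golgi. Kdelr3 had 11.56, 12.06 and 11.74 at day 3, against 9.49, 9.68 and 9.97 at day 1, and rose 4.21-fold (change 2.07 ± 0.18 SE, adjusted p = 0.000805). Kdelr1 had 13.29, 13.60 and 13.37 at day 3, against 12.29, 12.14 and 12.63 at day 1, and rose 2.09-fold (adjusted p = 0.00439). The days were apart for both genes, and every one of the 15 other fits called them.

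Set side by side, 4 of 7 collagen-linked genes rose and none fell (also none at an unadjusted limma p under 0.05), and 11 of 39 general genes rose and 4 fell. These shares of 57.1% and 28.2% stand beside 16.7% of all tested probes. The genes were chosen with earlier results of these data known, so the shares are not independent of those results. The median change was 1.12 in the collagen-linked genes and 0.12 in the general genes, against -0.05 over all tested probes. The collagen-linked set was divided within itself: Rcn3, Fkbp10, Creb3l1 and Sec23a rose by 1.12 to 3.48, and Serpinh1, P4hb and Ppib did not pass the test. The general set held the largest rise of the 46, that of Fkbp9, along with Fkbp7, Rcn1 and Kdelr3. With Fkbp7 and Fkbp9 counted as collagen-linked, the counts were 6 of 9 against 9 of 37, and the collagen-linked median was 2.15. The difference between the sets is a description, with no test, and 1 or 2 genes more or less move the median of so small a set.

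The remaining listed genes add little. Hyou1, Atf6, Ssr1 and Sec61g had a probe but did not pass the filter, with levels between 6.01 and 6.86 on all arrays, around the array median of 6.47. Second probes of Dnajb11 and Sar1a lay between 5.66 and 6.10 and did not pass either. No named probe was found for Fkbp11, Fkbp14, Tram2, Spcs1, Spcs2, Spcs3, Sec23b, Sec24d, Mia3 and Kdelr2, which include 4 of the 11 collagen-linked genes, and they were not analysed here.

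Related genes outside the 60 were described from lists of the same pathway. Counts by list, here and below, stand beside 16.7% of all tested probes higher and 15.2% lower, and are a description with no test. Of 12 collagen hydroxylation genes tested, 9 rose and none fell (median change 1.11): P3h4, of a collagen-modifying ER complex, rose 9.53-fold, and P3h1, the partner of Ppib, rose 6.05-fold. The count includes P4ha3, a prolyl 4-hydroxylase subunit that passed the filter through its day 3 arrays alone and so had to differ. Of 14 other ER foldases and oxidases, 3 rose and 1 fell. Ppic, the secretory cyclophilin C, rose 6.84-fold, while Ero1a, the oxidase that recharges disulfide isomerases, fell 5.35-fold, with levels of 9.98, 8.84 and 9.43 at day 3 against 11.98, 12.54 and 10.99 at day 1. Of 14 genes of N-glycosylation, 5 rose and none fell (median 0.36), among them Alg5 (2.16-fold) and Dpagt1 (1.95-fold). Of 4 genes of the signal recognition particle and its receptor, 1 rose (Srp68, 1.56-fold).

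Of 13 other COPII and ER exit genes, 3 rose and 3 fell (median -0.20). Sec16b, which organises ER exit sites, rose 5.86-fold, with 9.61, 9.73 and 9.69 at day 3 against 6.96 to 7.21 at day 1 (adjusted p = 0.000188). Tmed3, a p24 receptor, rose 2.43-fold. Of 14 COPI and Golgi genes, 3 rose and none fell (median 0.06), such as Gorasp2 (1.90-fold) and Arf4 (1.48-fold).

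On the stress side, 1 of 13 sensors and ER degradation genes passed the test. This was Mbtps1, a Golgi protease that cuts Atf6 and Creb3l1, which rose 1.54-fold (limma adjusted p = 0.00919). Of 15 targets of Perk and Atf4, 7 fell and 2 rose (median -0.20). The count includes Slc7a11, a cystine transporter that passed the filter through its day 1 arrays alone and so had to differ. Ddit4, also a hypoxia and glucocorticoid target, fell 3.05-fold, whereas Nupr1 rose 10.4-fold, with 11.78, 12.24 and 11.76 at day 3 against 7.83, 7.85 and 9.96 at day 1. Rat 3 was the highest day 1 array for Nupr1. It was also the highest day 1 array for the summed fibroblast, macrophage, endothelial and skeletal muscle markers, and a link was not tested.

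**Figure D4:**
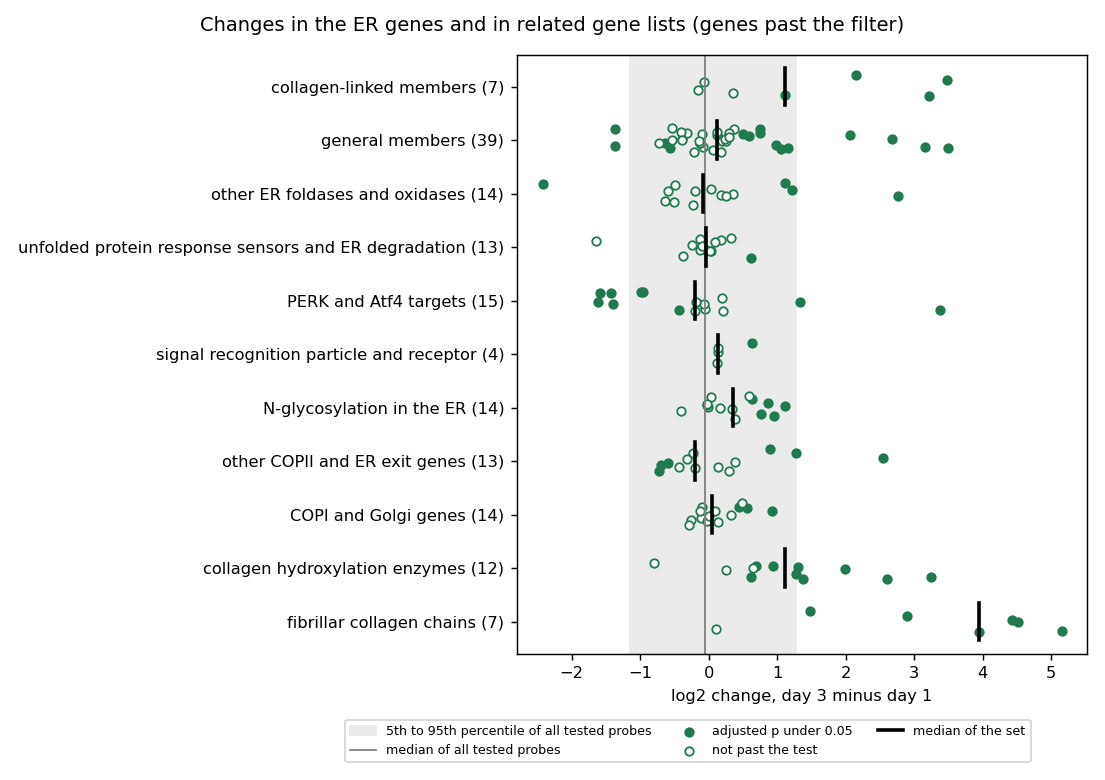
Log2 change (day 3 minus day 1) of each gene past the filter in the collagen-linked and general genes and in 9 related lists; black bars are medians and the grey band is the range from the 5th to the 95th percentile of all tested probes, -1.15 to 1.28. The medians of collagen-linked genes (1.12), collagen hydroxylation genes (1.11) and fibrillar collagens (3.94) lie right of the others.

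The promoter elements shown above were set against these changes. Of the 8 tested genes with an ERSE or ERSE-II, none rose and 1, Xbp1, fell (limma). Their changes lay between -0.73 (Herpud1) and 0.12 (Calr), with a median of -0.35. Rat 2 was the highest array for Hspa5, Hsp90b1, Dnajb11, Dnajc3, Xbp1 and Herpud1 among them. Without rat 2 the changes of the 8 genes lay between -0.41 (Xbp1) and 0.11 (Hsp90b1 and Calr). Over all tested probes 16.7% rose and 15.2% fell, so 1 fall in 8 is near the background, and the counts by element are a description with no test. Both tested genes with a UPRE, Sec23a and Kdelr3, rose. Among the 29 tested genes with none of the 3 elements, 10 rose and 3 fell, including Fkbp7, Fkbp9, Rcn1 and Creb3l1 among the rises and Dnajb9, Sdf2l1 and Ddit3 among the falls. The other 7 tested genes, Fkbp10, Rcn3, Sar1a, Pdia3, Pdia6, Sec61a1 and Tram1, had no window used here. A match of letters is a description of the sequence and says nothing on whether a factor binds there.

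**Figure D5:**
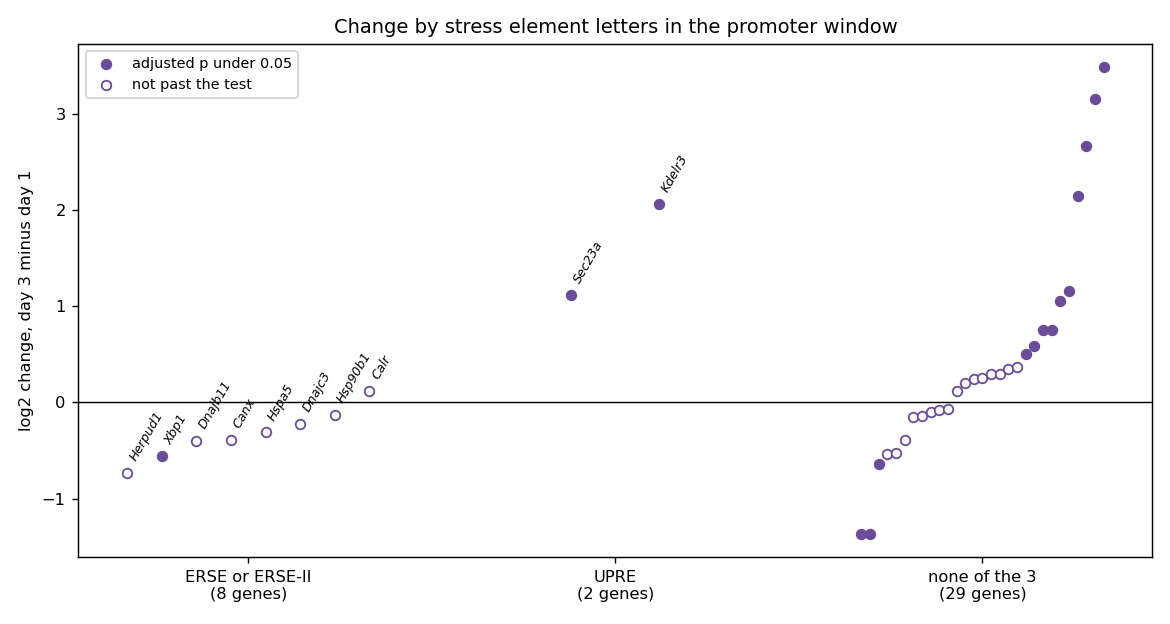
Log2 change (day 3 minus day 1) of 39 tested genes with a promoter entry, grouped by the element letters found in the window of 300 bases; filled points passed the test. Genes with an ERSE or ERSE-II lie between -0.73 and 0.12, and both genes with a UPRE lie above 1.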

How the data were processed

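The deposited intensity values, 1 per probe and array, are linear and already quantile normalized: sorted columns differ by at most 0.0399%. Per the submitters' processing notes, limma was used by the authors, with no version; the sources used here do not give the authors' background correction. Another deposited table has 12 per-sample columns whose names match no label, so it was not used. From the normalized values normexp removed background (limma 3.58.1, R 4.3.3, offset 50) before log2. A filter kept 11591 of 22517 probes, those brighter than their array's median on 3 or more of the 6 arrays. The two-sided test used lmFit and eBayes, with adjustment over all kept probes. The offset makes changes of dim probes look smaller. Of the probes, 13787 have 1 symbol, 0 several and 8730 none; 13747 matched a GRCr8 gene and 0 symbols changed. The brightest kept probe stands for a gene.

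The 60 genes and the lists were chosen with earlier results of these data known, and the promoter elements and printed sequences after values were seen. All 60 genes may be named; other lists give the 2 called genes with the largest absolute change, or, where none was called, the one with the smallest p. The fit was tested on simulated data with known changes. The number of arrays limits the precision, and p-values measure the spread between these rats. Alternatives were other background steps, filters, array weights, variance models, cyclic loess, thresholds, probe averaging, other class membership and each rat left out. Sequences of the other promoter sites are not reported here.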

Additional observations from a re-analysis of the deposited data

How the results depend on the processing

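No paired analysis was possible because the rats of both days carry different numbers. Array weights, under which day 1 rested mostly on rat 1, gave 23 genes higher (18 of the general ones), against 15 and 11. The probes called over the whole array numbered 6123 in that fit, against 3694. At adjusted p under 0.01, 7 general genes were higher and 0 of the 46 genes were lower. The share of all tested probes at that threshold was not counted. Leaving out each rat in turn gave 12 to 16 genes higher (4 to 5 collagen-linked, 8 to 11 general). The same fits gave 0 to 5 genes lower (0 to 5 general). Over all tested probes, these fits called 9.79% to 21.5% higher and 7.6% to 20.7% lower. Medians were 0.95 to 1.25 in the collagen-linked genes and 0.07 to 0.17 in the general genes. Counting Fkbp7 and Fkbp9 as collagen-linked moved that median to 2.15; Kdelr2 had no named probe. The cause was not tested for any of these. Changes near 0 turned sign: with cyclic loess, Calr had -0.03, Pdia5 0.02 and Tram1 -0.06, and with array weights Hsp90b1 had 0.07, Dnajc3 0.16, Pdia3 -0.15 and Pdia5 0.06. With each rat left out, changes ran from -0.24 to 0.11 for Hsp90b1, -0.45 to 0.05 for Dnajc3, -0.04 to 0.49 for Pdia4, -0.16 to 0.03 for Pdia5, -0.22 to 0.00 for Rcn2, -0.36 to 0.08 for Ssr3 and -0.01 to 0.17 for Tram1. No gene that passed the test turned sign in these fits. Dim signal limits what can be seen of Hyou1, Atf6, Ssr1 and Sec61g.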
